A study of Mus musculus with 4 samples.

Results

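The genes described here are 37 mouse genes of the type I interferon response, among them Irf7, out of the 22863 genes measured in the eye. They were picked by name, as genes that interferons induce or that control this induction, and with the difference of Irf7 between the conditions already known, so their own differences are given as descriptions, without p-values. RNA-seq was conducted on C3H/f+/+ mice, a strain that makes melatonin and carries the intact Pde6b allele, and compared objective day with subjective day to find transcripts that change with light history. Each condition had 2 biological replicates, and each replicate pooled 4 eyes of a female and a male mouse, so that differences between single mice or between the sexes were averaged. Subjective day mice were taken at circadian time 6 after 18 hours in darkness, although a longer time in darkness is also given in the study's text. Objective day mice were taken at the same clock hour, zeitgeber time 6 of a 12 hour light cycle, after exposure to light in the morning and 1 hour of dark adaptation. No mouse carried a transgene or received a drug by the sources used here, and the age of these mice was not given. The tissue was the back of the eye, that is retina, retinal pigment epithelium (RPE), choroid and posterior sclera, so the values mix neurons, glia, immune cells and vessels.

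Type I interferons are secreted proteins that cells make when sensors in the cytoplasm or in endosomes detect viral or misplaced nucleic acid. They bind a receptor made of IFNAR1 and IFNAR2, whose kinases phosphorylate STAT proteins, among them STAT2. With IRF9 these form the complex ISGF3, which binds the interferon-stimulated response element and turns on a large set of antiviral genes, including those for its own subunits. IRF7 is itself such a gene, and it drives the interferon genes in turn, so that a first wave of interferon is amplified. In the retina, microglia, Müller glia and the RPE can all express genes of this response.

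The deposited values have the form of gene counts after adjustment to equal library sizes, although no source used here states this, and they are called adjusted counts below. They summed to between 33278417 and 35236783 per sample, which are not taken as the sequencing depth. Of the 22863 genes, 17784 reached an adjusted count of 10 in 2 or more samples and were compared with limma on log2(value + 1), on which the change of a low gene is understated. At an adjusted p under 0.05, 8.51% of the genes tested were called, 7.45% as lower and 1.06% as higher in objective day. With the samples scaled by their upper quartile the split was 1241 lower and 402 higher genes, against 1325 and 189. Both objective day samples lay below both subjective day samples for 28.2% of genes and above them for 27.9%. A two-sided exact permutation test of 2 samples against 2 cannot go below p = 0.333, so each call depends on pooling the variance over genes, as limma does. The photoreceptor markers Sag, Gnat1, Pde6a, Pde6b and Gnat2 were expressed and tested, as were 5 of 6 markers of the RPE, the exception being Best1 at 0, 9.70, 1.89 and 1.91.

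Many promoters of interferon-stimulated genes are known to hold a short response element, which was looked up in the 300 bases around RefSeq start sites (250 before and 50 after, build GRCm38.p6). Windows were found for 28 of the 37 genes. The core of the interferon-stimulated response element, written here as TTTC, any 2 bases and TTTC, and searched on both strands, was present for 15 of these 28 genes (53.6%), compared with 3.99% of the 27025 genes in the RefSeq table. The stretches below come from before the start site, read 5′ to 3′ on the strand of the gene, with each match to the core in capitals. On the opposite strand the same core reads GAAA, any 2 bases and GAAA. They show the arrangements found, namely 3 overlapping copies for Isg15, 2 overlapping copies for Oas1a and Bst2, 2 separate copies for Ifit1 and Ifit3, and 1 copy for Oas3. The stretch for Irf7 is shown because it holds no match.
Isg15, chr4:156200860-156200911, minus strand: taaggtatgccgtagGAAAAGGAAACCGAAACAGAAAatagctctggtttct
Ifit1, chr19:34640770-34640828, plus strand: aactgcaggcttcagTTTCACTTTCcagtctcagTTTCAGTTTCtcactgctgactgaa
Ifit3, chr19:34583358-34583431, plus strand: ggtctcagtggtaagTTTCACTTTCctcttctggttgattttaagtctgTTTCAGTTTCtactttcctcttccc
Oas1a, chr5:120907526-120907560, minus strand: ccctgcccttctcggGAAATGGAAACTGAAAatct
Bst2, chr8:71537572-71537617, minus strand: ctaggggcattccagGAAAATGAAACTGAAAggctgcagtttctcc
Oas3, chr5:120777710-120777749, minus strand: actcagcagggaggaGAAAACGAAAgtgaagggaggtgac
Irf7, chr7:141266482-141266601, minus strand: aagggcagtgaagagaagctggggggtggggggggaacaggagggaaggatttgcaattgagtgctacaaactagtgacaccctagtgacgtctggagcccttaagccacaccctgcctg

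The other genes with a match were Ddx58, Eif2ak2, Gbp2, Gbp3, Ifih1, Ifitm3, Rsad2, Stat2 and Trim30a. In the bases before the start site alone, the core was found for 11 of the 28 genes (39.3%), against 3.46% of all genes. The core of the gamma-activated site, TTCNNNGAA, was found for 7 of the 28 genes (25%), namely Bst2, Eif2ak2, Ifit2, Ifitm3, Irf1, Oas1a and Psmb8, against 9.55% of all genes. Matches to both cores overlapped in 2 places. A match describes these letters and does not show that a factor binds there, and a window without one says nothing about the factor. The median log2 fold change was -0.17 for the 15 genes with the response element core and -0.10 for the 13 without it, and with only the bases before the start site searched it was -0.16 for 11 genes and -0.17 for 17. No window was found for Dhx58, Mx1, Mx2, Oas2, Parp14, Parp9, Rtp4, Usp18 and Zbp1.

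Irf7, the transcription factor that amplifies the interferon response, was at a much lower level in objective day than in subjective day. It lies on the minus strand of chromosome 7 of GRCm38 from 141262706 to 141266481 (ENSMUSG00000025498). Its adjusted counts were 941 and 963 in the subjective day samples against 444 and 458 in the objective day samples. The conditions stood well apart, and within each condition the 2 samples were nearly equal. The means were 952 ± 15.7 (SD, n = 2) and 451 ± 9.71 (SD, n = 2), so that objective day held 47.4% of the subjective day level. The log2 fold change of objective over subjective day was -1.08 (standard error 0.076). The lowest subjective day value and the highest objective day value were 1.04 apart on the log2 scale, while samples of 1 condition differed by 0.034 and 0.044. In eye tissue, fewer cells of a type and less RNA per cell cannot be told apart.

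Among the 17784 genes tested, 297 had a lower log2 fold change than Irf7. Of the 8057 genes with a mean at least as high, 29 did. A fold change below that of a 2-fold loss was seen in 1.94% of all genes tested. Under the alternatives for processing, the log2 fold change of Irf7 ran from -1.18 to -1.05. Irf7 shares 45 exonic bases with Phrf1 on the opposite strand, and whether reads were counted by strand is not given in the sources used here. Phrf1 had adjusted counts of 3494.9 and 3167 in subjective day against 4052.8 and 3747.8 in objective day, with a log2 fold change of 0.23 (standard error 0.073, limma adjusted p = 0.106).

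The other 3 transcription factors of the set differed less between the conditions. Irf9, the DNA-binding subunit of ISGF3, had values of 564 and 590 in subjective day against 542 and 606 in objective day. Stat2, which carries the activating domain of the same complex, had values of 1479.8 and 1410.6 against 1446.3 and 1482.9. For both genes the conditions overlapped, with log2 fold changes of -0.010 (standard error 0.091) for Irf9 and 0.02 (standard error 0.065) for Stat2. Irf9 shares 123 exonic bases with Rnf31 on the same strand, which makes its count uncertain. Irf1, a factor induced by interferon gamma as well, had values of 320 and 286 against 252 and 274. Both objective day samples of Irf1 were below both subjective day samples, and the log2 fold change was -0.20 (standard error 0.11).

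**Figure D1:**
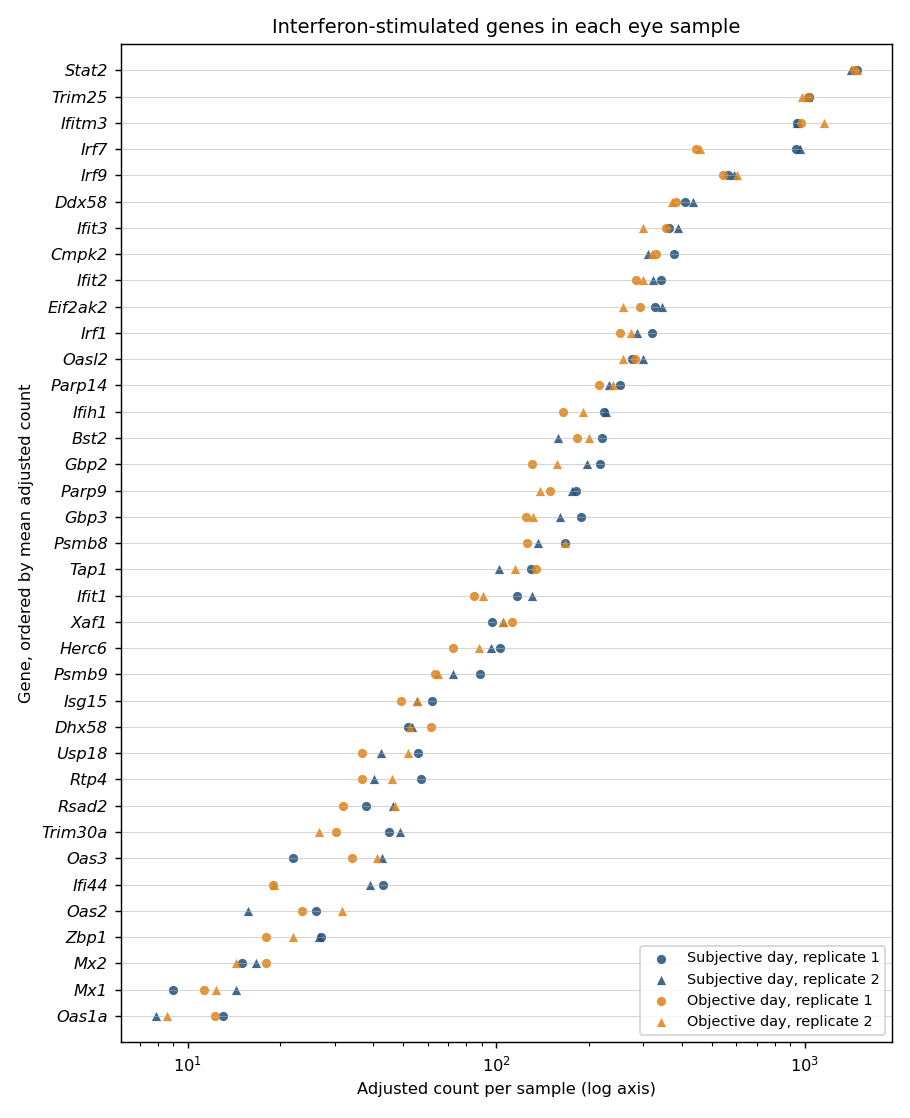
Adjusted count of each of the 37 genes (log axis) in the 4 samples, with genes ordered by their mean. For Irf7 the subjective day points (941 and 963) stand apart from the objective day points (444 and 458), while for most other genes the 4 points lie close together.

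Of the 3 cytoplasmic sensors of viral RNA, Ifih1 was at 79.5% of its subjective day level, Ddx58 at 89.1% and Dhx58 at 109%. Ddx58, which encodes RIG-I, a detector of RNA with 5′ triphosphate ends, had values of 410 and 436 in subjective day against 384 and 371 in objective day. Ifih1, which encodes MDA5, a detector of long double-stranded RNA, had values of 223 and 227 against 165 and 192. Dhx58, which encodes LGP2, a regulator of both, had values of 51.9 and 53.2 against 61.5 and 52.5. Objective day was lower without overlap for Ddx58 and Ifih1, while for Dhx58 the conditions overlapped. The log2 fold changes were -0.17 (standard error 0.093) for Ddx58, -0.33 (standard error 0.13) for Ifih1 and 0.11 (standard error 0.21) for Dhx58.

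The IFIT genes, neighbours on chromosome 19, encode proteins that bind foreign RNA and hold back its translation. Ifit1 had values of 117 and 131 in subjective day against 85 and 90.9 in objective day. Ifit2 had values of 342 and 323 against 285 and 300. Ifit3 had values of 364 and 390 against 356 and 300. All 3 were lower in objective day without overlap, beside 28.2% of all genes, although the higher objective day value of Ifit3 was close to the lower subjective day value. Ifit1 had a log2 fold change of -0.49 (standard error 0.16), compared with -0.18 for Ifit2 and -0.21 for Ifit3. Ifit3 has a near-identical copy, Ifit3b, which was not analysed here, so the Ifit3 count is uncertain.

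The OAS genes of chromosome 5 encode enzymes, or relatives of enzymes, that make 2′-5′ oligoadenylates to activate RNase L. Oasl2 was the highest of them, with values of 276 and 300 in subjective day against 281 and 257 in objective day. Oas3 had values of 22 and 42.8 against 34 and 41.2, and Oas2 of 26 and 15.7 against 23.5 and 31.6. Oas1a, at 13 and 7.88 against 12.3 and 8.56, had the lowest mean of the set, and 6 of the 37 genes had a mean under 30. The conditions overlapped for all 4 genes. The log2 fold changes ran from -0.10 for Oasl2 to 0.41 for Oas2, and the standard errors of the 3 low genes were between 0.35 and 0.46.

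ISG15 is a ubiquitin-like protein that is attached to other proteins during the response. Isg15 had values of 61.9 and 55.5 in subjective day against 49.1 and 55.5 in objective day. Usp18, which removes ISG15 and also blocks the interferon receptor, had values of 55.9 and 42.4 against 36.7 and 51.8. Herc6, the ligase that attaches ISG15 in mice, had values of 103 and 96.5 against 72.7 and 88.1. Trim25, a ubiquitin ligase that acts on RIG-I, was the most abundant gene of this group by adjusted count. Its values of 1034.5 and 1027.1 against 1025.8 and 981 made it one of the steadiest of the set, with a log2 fold change of -0.039 (standard error 0.068). The conditions overlapped for Usp18, while Isg15, Herc6 and Trim25 were lower in objective day without overlap, Isg15 by a margin lost in rounding. The log2 fold changes were -0.16 for both Isg15 and Usp18 and -0.31 (standard error 0.18) for Herc6. Herc6 shares 1269 exonic bases with Gm45193 on the same strand, and its count is uncertain.

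Of the ADP-ribosyltransferase genes, which are neighbours on chromosome 16, Parp14 had values of 252 and 233 in subjective day against 215 and 239 in objective day. Parp9, the partner of the ubiquitin ligase DTX3L, had values of 181 and 176 against 149 and 139. Only Parp9 had objective day samples that were both below the subjective day samples, with a log2 fold change of -0.31 (standard error 0.13), while that of Parp14 was -0.093. Parp9 shares 458 exonic bases with Dtx3l on the opposite strand.

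The interferon-inducible GTPases fell into a pair that was lower in objective day and a pair with low values that overlapped. Gbp2 and Gbp3 encode guanylate-binding proteins that attack the vacuoles of intracellular pathogens. Gbp2 had values of 217 and 197 in subjective day against 131 and 158 in objective day, that is 69.8% of the subjective day mean. Gbp3 had values of 188 and 161 against 125 and 132, or 73.6% of the mean. Neither gene's conditions overlapped, and the log2 fold changes were -0.52 (standard error 0.15) and -0.44 (standard error 0.15). The guanylate-binding protein genes are close in sequence, so reads may have been split among them. Mx1 and Mx2, which encode dynamin-like restriction factors, had values of 8.98 and 14.3 against 11.3 and 12.4, and of 15 and 16.6 against 18 and 14.3. At these levels the standard errors were 0.42 and 0.35, not far below the change of Gbp2 in size, so these values say little about a change of that size.

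Of the membrane proteins, Ifitm3, which blocks fusion of enveloped viruses in endosomes, had values of 942 and 945 in subjective day against 975 and 1157.1 in objective day. It was the 1 gene of the set whose objective day samples were both above the subjective day samples, with a log2 fold change of 0.17 (standard error 0.093). Bst2, which encodes tetherin and holds budding virus at the cell surface, had values of 221 and 159 against 183 and 200. Bst2 had a log2 fold change of 0.03 (standard error 0.17), and its subjective day samples were further apart than its objective day samples. Reads of Ifitm3 can also match close relatives in its cluster.

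The antigen processing genes Psmb8, Psmb9 and Tap1 lie side by side on chromosome 17 and encode subunits of the immunoproteasome and of the peptide transporter into the endoplasmic reticulum. Psmb8 had values of 167 and 137 in subjective day against 126 and 167 in objective day. Psmb9 had values of 88.9 and 72.3 against 63.3 and 65. Tap1 had values of 130 and 102 against 135 and 115. The conditions overlapped for Psmb8 and Tap1, while Psmb9 was lower in objective day with a log2 fold change of -0.32 (standard error 0.20). Psmb9 and Tap1 share 212 exonic bases on opposite strands and Psmb8 shares 498 with Gm20496, so all 3 counts are uncertain without a known strand setting.

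Among the remaining genes, Ifi44, an interferon-induced gene of chromosome 3, was at 46.5% of its subjective day level in objective day, against 47.4% for Irf7. Its values were 42.9 and 38.9 in subjective day against 18.9 and 19.1 in objective day. The log2 fold change was -1.06 with a standard error of 0.27, against 0.076 for Irf7. Trim30a, a TRIM protein that restrains inflammatory signalling, had values of 44.9 and 48.7 against 30.3 and 26.7 and a log2 fold change of -0.70 (standard error 0.25). Trim30a belongs to a cluster of similar genes on chromosome 7, and its count is uncertain. Zbp1, a sensor of Z-form nucleic acid that triggers necroptosis, had values of 27 and 26.6 against 17.9 and 22. Eif2ak2, which encodes the kinase PKR that stops translation on double-stranded RNA, had values of 328 and 344 against 293 and 257. Of the 8 remaining genes, these 4 had objective day samples below the subjective day samples, beside 28.2% of all genes, and the other 4 overlapped. The log2 fold changes were -0.41 (standard error 0.30) for Zbp1 and -0.29 (standard error 0.11) for Eif2ak2.

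Rsad2, which encodes viperin, a maker of a chain-terminating nucleotide, lies beside Cmpk2, a nucleotide kinase gene, on chromosome 12. Rsad2 had values of 37.9 and 46.4 in subjective day against 32 and 47 in objective day. Cmpk2 had values of 377 and 311 against 330 and 320. The conditions overlapped for both genes of this pair, with log2 fold changes of -0.11 and -0.075. Rtp4, a receptor transporter protein gene, had values of 56.9 and 40.2 against 36.8 and 46. Xaf1, a pro-apoptotic gene, had values of 96.9 and 105 against 113 and 105. These 2 genes gave log2 fold changes of -0.21 (standard error 0.27) and 0.11 (standard error 0.16), and the Rtp4 count is uncertain because it shares 296 exonic bases with Gm45338.

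**Figure D2:**
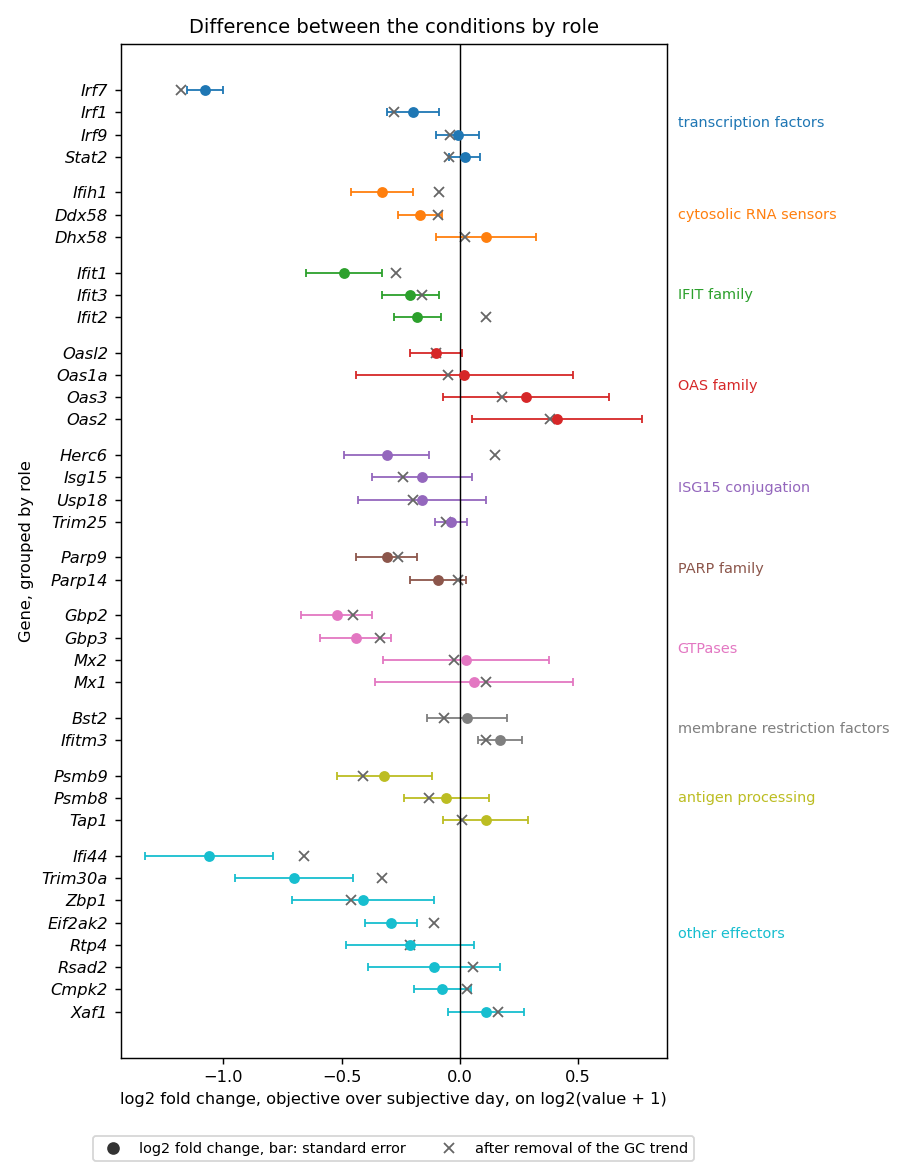
Log2 fold change of objective over subjective day for each of the 37 genes, grouped by role, with the standard error as a bar and the value after removal of the trend with GC content as a cross. Irf7 (-1.08) and Ifi44 (-1.06) lie furthest below 0, and the cross of Irf7 (-1.18) stays there while that of Ifi44 (-0.66) moves towards 0.

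As a set, all 37 genes passed the filter on low values. In the fit over all genes 1 of them, Irf7, was past the threshold and 36 were not, beside 7.45% of all genes called lower. The number past the threshold was 0 with a variance prior that does not follow mean expression and 2 with a pseudocount of 10, which added Ifi44. Since Irf7 was known to differ when the set was made, this count is no test of the set. The median log2 fold change was -0.16, against 0.015 over all genes tested, and without Irf7 it was -0.13. A fold change below 0 was found for 26 of the 37 genes, beside 47.4% of all genes. The objective day samples were both below the subjective day samples for 18 genes (28.2% of all genes) and both above for 1 gene (27.9% of all genes), while the conditions overlapped for 18. Most differences were small, since 23 genes had a log2 fold change between -0.25 and 0.25, including 15 of the 22 genes with a mean of at least 100. Below -0.25 were 12 genes, and above 0.25 were 2, Oas2 and Oas3. These 2 depended on single samples. Without the subjective day replicate 1 or 2, the log2 fold change of Oas2 was 0.76 or 0.069, and that of Oas3 was -0.19 or 0.74.

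Added up, the 36 genes other than Irf7 had adjusted counts of 8884 and 8609.8 in subjective day against 8117.3 and 8426.1 in objective day. The objective day sums were both lower, at 92.8% and 96.3% of the subjective day mean. The same figures for Irf7 were 46.7% and 48.1%. Totals over all genes were 35236783 and 34864745 in subjective day against 34905325 and 33278417 in objective day. The objective day replicate 2 was thus also lowest in total. The sums were not scaled to these totals, so they do not show a lower share of each sample for the 36 genes. Per kilobase of transcript, Ifitm3 had the highest level of the set over all samples at 1482 adjusted counts, followed by Stat2 at 331 and Bst2 at 241. Irf7 ranked 3 of 37 in subjective day, at 294 adjusted counts per kilobase, and 7 in objective day, at 139. Mx1 was lowest at 3.47 adjusted counts per kilobase.

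The fold change of a gene in these data followed the GC content of its longest transcript, with a Spearman correlation of 0.58 across 17536 genes, a description over genes that share the same 4 libraries. Across the 37 genes the correlation was 0.47, and across the 36 without Irf7 it was 0.59. The genes of the set ran from 39.4% to 55.8% GC, where the median gene had 49.8%. The 19 genes below that median had a median log2 fold change of -0.21, with 17 of them below 0. The 18 genes at or above it had a median of 0.0042, with 9 below 0. Irf7 was in the second of these groups, at 55.4% GC, whereas Ifi44 and Trim30a had 40.4% and 40.8%. With each sample's GC trend removed, 1.2% of all genes were called, 0.633% as lower in objective day, and the median of the set moved from -0.16 to -0.09. Log2 fold changes then were -1.18 for Irf7, -0.66 for Ifi44, -0.33 for Trim30a, -0.27 for Ifit1 and -0.09 for Ifih1, while those of Gbp2 and Gbp3 were -0.45 and -0.34. For 8 of the 37 genes, among them Ifit2 (0.11) and Herc6 (0.15), the fold change changed sign. The part of GC content in the differences was not tested, and removing its trend also removes any biological difference that follows it.

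**Figure D3:**
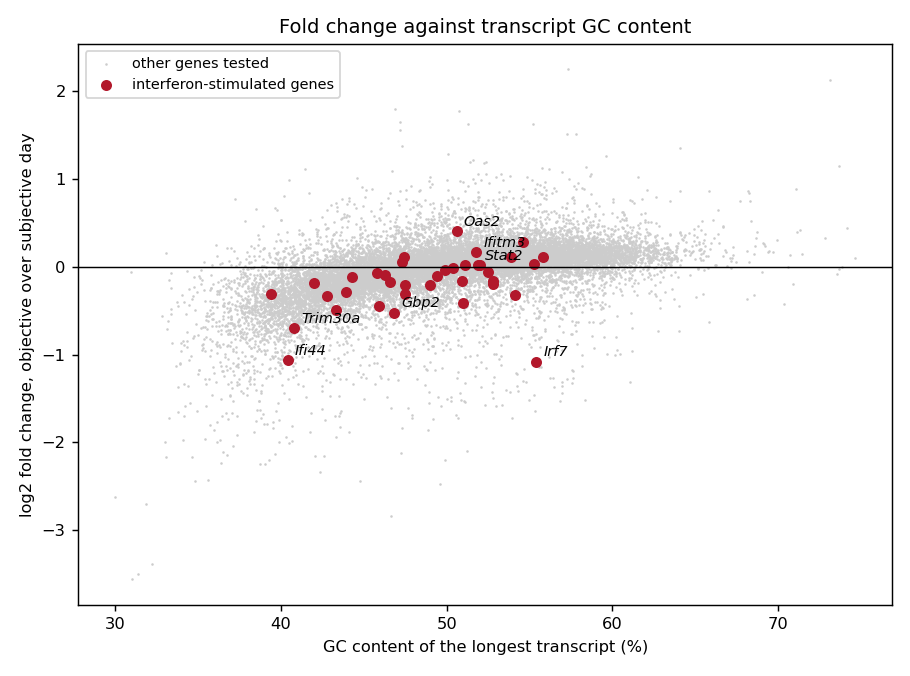
Log2 fold change of objective over subjective day against GC content of the longest transcript (%), with the 37 interferon-stimulated genes as large points over all other genes tested. Fold changes rise with GC content in both, and Irf7, at 55.4% GC and -1.08, lies far below the genes around it.

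Further genes of the pathway were taken from a list by function, excluding the 37, and their differences were tested over all genes. Of 131 listed, 109 were present among the measured genes, 103 passed the filter, and 3 fell in objective day by limma's test while 0 rose, beside 7.45% and 1.06% of all genes. At an unadjusted p under 0.05 there were 18, beside 25.4% of all genes. Their median log2 fold change was -0.0093, with 53 genes below and 50 above 0. Without the subjective day replicate 1 the count was 6, with the GC trend removed it was 1, and with a variance prior that does not follow mean expression it was 0. The interferon genes themselves, 20 of those listed, were not analysed here.

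Of 13 receptor and signalling genes, 1 fell, beside 7.45% of all genes. This was Jak2, the kinase of the interferon gamma receptor and of many cytokine receptors. Its values were 1634.6 and 1681.9 in subjective day against 1246 and 1236.2 in objective day. The samples of each condition were within a few percent of each other. On the log2 scale the change was -0.42 (standard error 0.063, limma adjusted p = 0.00975). Removal of the GC trend gave -0.25 (limma adjusted p = 0.129), and without the objective day replicate 2 the adjusted p was 0.0589. Over the 14 alternatives the adjusted p of Jak2 ran from 0.00222 to 0.13. The receptor subunits of type I interferon were tested but not called. Ifnar1 had values of 1833.3 and 1857 against 1716.7 and 1778.4 (log2 fold change -0.079, limma adjusted p = 0.468). Ifnar2 had values of 308 and 336 against 309 and 276 (log2 fold change -0.14, limma adjusted p = 0.496).

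Of 20 genes of nucleic acid sensing that were tested, limma called 0, beside 8.51% of all genes. At an unadjusted p under 0.05 there were 3, beside 25.4% of all genes. Irf3, the factor that starts interferon production together with Irf7, had values of 1575.7 and 1583.3 in subjective day against 1817 and 1771.6 in objective day. Its objective day samples were the higher ones, unlike those of Irf7, with a log2 fold change of 0.18 (standard error 0.061, limma adjusted p = 0.113). Removal of the GC trend gave 0.076 (limma adjusted p = 0.671), and the adjusted p of Irf3 ran from 0.0451 to 0.671 over the alternatives. The median over the 20 genes was 0.011. The 11 further genes of antigen presentation had a median of 0.072. Limma called 0 of these 11, and 0 had an unadjusted p under 0.05, beside 8.51% and 25.4% of all genes.

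Among 59 further interferon-stimulated genes that passed the filter, 2 fell, beside 7.45% of all genes, and the median was -0.023. At an unadjusted p under 0.05 there were 13, beside 25.4% of all genes. Slfn9, a gene of the Schlafen family, had values of 78.9 and 92.9 in subjective day against 23.6 and 27.8 in objective day. Its log2 fold change of -1.70 (standard error 0.23, limma adjusted p = 0.0072) was greater in size than that of Irf7. With the GC trend removed the log2 fold change was -1.49 and the adjusted p was 0.0315, within a range of 0.00129 to 0.126 over the alternatives. Slfn9 has close relatives beside it, and its count is uncertain. Pnpt1, a mitochondrial nuclease that degrades RNA, had values of 814 and 924 against 535 and 628 (log2 fold change -0.58, standard error 0.11, limma adjusted p = 0.019). Removal of the GC trend left Pnpt1 at -0.13 (limma adjusted p = 0.639), and without the objective day replicate 1 the adjusted p was 0.0704. Its adjusted p over the alternatives ran from 0.00156 to 0.639.

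Immune cells express many interferon-stimulated genes, and their markers were compared between the same samples. All 14 markers of microglia and macrophages were tested, and their adjusted counts summed to 4758.1 and 3879.1 in subjective day against 4514.4 and 4649.9 in objective day. The objective day sums lay between the subjective day sums, and the median log2 fold change was 0.16. Of the 14 markers, 10 had a log2 fold change above 0. For 4 (Aif1, C1qa, C1qb and Tyrobp) both objective day samples were above the subjective day samples, beside 27.9% of all genes. For 3 (P2ry12, Itgam and Ptprc) both were below, beside 28.2% of all genes. With the GC trend removed the median was 0.074, and 6 of the 14 markers were below 0. Without that removal, 7 had an unadjusted p under 0.05, beside 25.4% of all genes. Beside 7.45% of all genes, 1 of the 14 markers fell, P2ry12, a purine receptor of resting microglia, with values of 154 and 179 against 102 and 76.3. The log2 fold change was -0.90 (standard error 0.19, limma adjusted p = 0.0301), and with the GC trend removed it was -0.38 with an adjusted p of 0.422, in a range of 0.0134 to 0.422 over the alternatives. Lymphocyte markers were low, with summed values between 83 and 98.6 and 4 of 11 listed genes passing the filter, and the defining T cell marker Cd3e at 0.998 and 2.19 against 0.899 and 4.82. The 2 markers of plasmacytoid dendritic cells that were tested summed to 145 and 249 against 165 and 209. Most of this sum was Ccr9, at 114 and 213 against 137 and 182. Siglech was lower in both objective day samples, at 31 and 36.5 against 28.4 and 26.8 (log2 fold change -0.28, limma adjusted p = 0.563). Neutrophil markers summed to 63.9 and 85 against 74.2 and 122. In these 3 lists limma called 0 genes, and 0 had an unadjusted p under 0.05. The part of immune cells in the differences of the interferon-stimulated genes was not tested.

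Markers of tissues at the edge of the dissection differed between the conditions. The keratin markers of the ocular surface epithelium summed to 12076.3 and 12157.8 in subjective day against 3436.9 and 5969 in objective day. Krt12 of the cornea was between 1.78 and 12.5 and was not tested. All 5 keratins that were tested fell, beside 7.45% of all genes, with log2 fold changes between -1.52 and -1.28. Among them were Krt13 (limma adjusted p = 0.00558), Krt14 (0.00558), Krt4 (0.00561) and Krt5 (0.0165). With a variance prior that does not follow mean expression they were not called (limma adjusted p = 0.126, 0.13, 0.13 and 0.17, the highest over the alternatives), and the lowest ran from 4.89e-06 to 1.52e-05. The objective day samples held 28.4% and 49.3% of the subjective day mean for these keratins, whereas they held 46.7% and 48.1% for Irf7. The part of epithelial tissue in the Irf7 difference was not tested.

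Of 5 red blood cell markers tested, 3 rose in objective day, beside 1.06% of all genes, namely Hba-a1 (log2 fold change 0.67, limma adjusted p = 0.00573), Hbb-bs (0.37, adjusted p = 0.0115) and Hbb-bt (0.98, adjusted p = 0.0268). Of these, Hbb-bs and Hbb-bt were no longer called with the GC trend removed (limma adjusted p = 0.0572 and 0.0766), without the objective day replicate 1 (0.065 and 0.0855) or without the objective day replicate 2 (0.0795 and 0.102), and over the alternatives their adjusted p reached 0.131 from lowest values of 0.0018 and 0.00329. Hba-a1 ranged from 5.92e-05 to 0.126 in adjusted p. Red blood cell markers summed to 3053.5 and 3161.3 in subjective day against 4300.9 and 4574.3 in objective day. Of 6 endothelial markers tested, Cldn5, a tight junction gene, rose (log2 fold change 0.52, limma adjusted p = 0.0207), and with the GC trend removed its adjusted p was 0.14, within a range of 0.00863 to 0.142 over the alternatives. The median log2 fold change of the 6 endothelial markers was 0.16, with 4 of them above 0, while their summed value, most of it from Kdr (90.7% of its subjective day mean), was at 95.3% and 93.7% in objective day. Of the 5 RPE markers tested 1 fell, beside 7.45% of all genes. This was Rpe65, the retinoid isomerase (log2 fold change -0.52, limma adjusted p = 0.0286). With the GC trend removed its log2 fold change was -0.24 and its adjusted p was 0.451, in a range of 0.000666 to 0.451 over the alternatives. The median log2 fold change of the RPE markers was 0.0024, with 3 of them above 0. The part of blood, vessels and RPE in the differences of the interferon-stimulated genes was not tested. Over all marker lists 11 of 49 genes tested were called, beside 8.51% of all genes, compared with 18 without the subjective day replicate 1 and 6 without the objective day replicate 2.

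**Figure D4:**
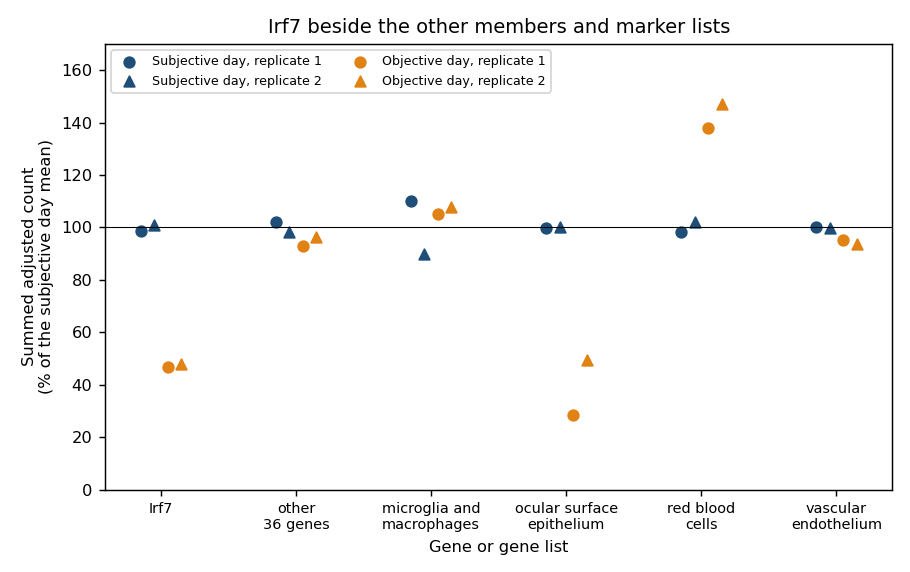
Adjusted counts of Irf7, of the other 36 genes and of marker lists in each sample, as a percentage of the subjective day mean and not scaled to the sample totals. Irf7 sits at 46.7% and 48.1% in objective day, the other 36 genes at 92.8% and 96.3%, microglia and macrophage markers at 105% and 108%, and ocular surface keratins at 28.4% and 49.3%.

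The genes around Irf7 on chromosome 7 were compared last, a choice made after the values of Irf7 were seen. Of the 5 tested genes on either side, 1 of 10 was called, beside 8.51% of all genes. This was Drd4, the dopamine D4 receptor of photoreceptors, whose start site is 25.5 kb from that of Irf7. Drd4 had values of 8684.3 and 8118.5 in subjective day against 6040.7 and 6242.5 in objective day. The log2 fold change was -0.45 (standard error 0.064, limma adjusted p = 0.00813), and -0.56 with an adjusted p of 0.0156 once the GC trend was removed, in a range of 1.44e-05 to 0.13 over the alternatives. Between Irf7 and Drd4 lies Sct, the secretin gene, with low values of 21 and 17.8 against 13.3 and 11.5 (log2 fold change -0.61, standard error 0.35, limma adjusted p = 0.328). On the other side of Irf7, Phrf1 was not called, as given above. The remaining 7 neighbours, among them Hras and Deaf1, had log2 fold changes between -0.10 and 0.18.

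**Figure D5:**
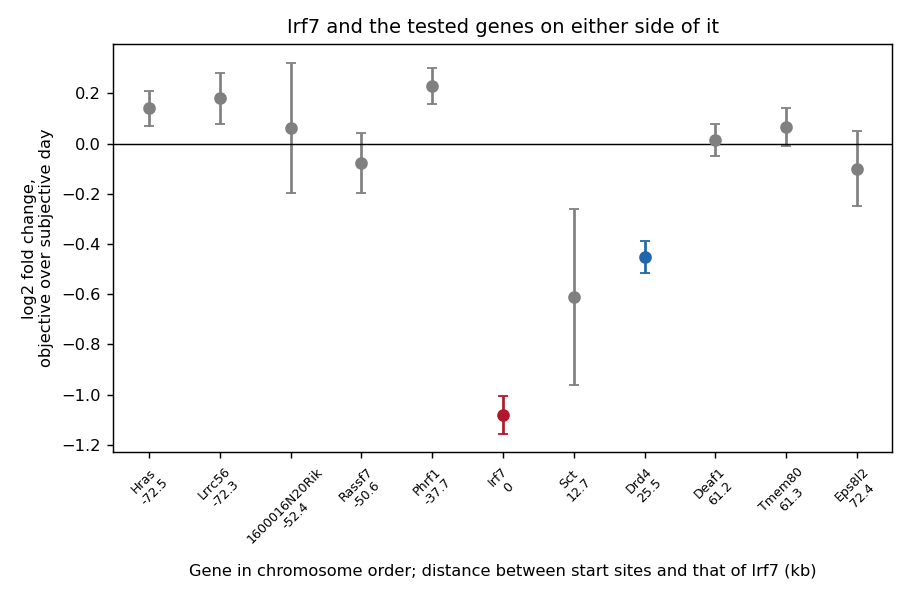
Log2 fold change of objective over subjective day, with its standard error as a bar, for Irf7 and the 5 tested genes on either side, in chromosome order with the distance between start sites in kb. Irf7 (-1.08) lies below all 10 neighbours, of which Sct (-0.61, with a wide bar) and Drd4 (-0.45) are lowest.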

How the data were processed

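The authors sequenced poly-A RNA of 4 eye samples, 2 per condition, as single 50-base reads on 1 lane. By the Methods and the submitters' processing notes, the reads were processed with CASAVA 1.8, aligned to the mouse genome with TopHat2 2.0.9 and Bowtie2 2.1.0 under Ensembl release 72, counted with HTSeq and compared with edgeR. The strand setting is not given in the sources used here. The authors deposited a fractional signal for each gene, in the form of a count adjusted to equal library sizes (as edgeR's pseudo-counts are), which is not stated. The table also holds the authors' fold changes, p-values, FDR and log2 CPM, which were not used, and 0 columns of sample values were left out.

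Differences on log2(value + 1) were computed with limma 3.58.1 (R 4.3.3). Genes had to reach a value of 10 in 2 or more samples. The variance prior followed mean expression, and p was adjusted by Benjamini-Hochberg with a threshold of 0.05. The p-values rest on the spread between these pooled samples together with the variance pooled over genes, and they do not measure the spread between single mice. Length, GC content (known for 98.6% of genes tested) and positions came from GENCODE M21 on GRCm38, with length and GC content from the longest transcript. The GC trend was removed in each sample by local regression with a span of 0.3. Promoters came from RefSeq. The method was tested on simulated data. The depth of the reads is unknown, and precision is limited by the 2 samples per condition. Figures were drawn with matplotlib 3.10.9.

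The members and lists were chosen with earlier results of these data known. All members are named, with the value in every sample where the mean was at least 10. Of the further pathway genes, those called and Ifnar1, Ifnar2 and Irf3 are named (1 further gene of this rule is not reported here), and of each marker list up to 4 called genes with the smallest adjusted p. Other genes were named after seeing their values. The alternatives were the pseudocount, the filter, the scaling, the variance prior, the GC trend, the replicate block and each sample left out.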

Additional observations from a re-analysis of the deposited data

How the results depend on the processing

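The log2 fold change of Irf7 stayed between -1.18 and -1.05 under all 14 alternatives, and none of the called pathway, marker and neighbour genes named in the report changed sign. The median of the 37 genes was -0.09 with the GC trend removed, with or without the replicate block, and ran from -0.21 to -0.11 with each sample left out. Over all genes, 1514 were called as reported, 211 with the GC trend removed and from 674 to 2778 with a sample left out, namely 2778 without the subjective day replicate 1, 775 without the objective day replicate 1 and 674 without the objective day replicate 2. Of further pathway genes 3 were called as reported, 1 with the GC trend removed and 2 to 6 with a sample left out. Of marker genes 11 were called as reported, 6 with the GC trend removed and 6 to 18 with a sample left out. Leaving out a sample leaves a lone sample that is assumed to vary like the others.

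With a variance prior that does not follow mean expression, limma called 0 genes in all, 0 further pathway genes and 0 markers, with 3585, 18 and 17 at an unadjusted p under 0.05. With the replicate number as a block, 3613 genes were called, 2331 lower and 1282 higher. Among the calls were 3 of the 37 genes (Irf7, Ifi44 and Gbp2). There were also 13 further pathway genes (9 lower, 4 higher), Irf3 among the higher (limma adjusted p = 0.0451). With the block and the GC trend removed, 1626 genes were called, 712 lower and 914 higher. Deviations of samples numbered alike correlated at 0.32 over all genes and at -0.009 over the 37 genes, and the labels do not say that a number marks a shared batch. In the promoters, the response element core was found for 11 genes when only bases before the start site were searched, against 15.

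The sign of the fold change differed under at least 1 alternative for 16 of the 37 genes, 2 of them with a log2 fold change over 0.25 in size. Genes with low values have wide standard errors, up to 0.46 for Oas1a. With 2 pools of eyes in each condition, and light history and time in darkness differing together, the 2 cannot be told apart.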

Other observations

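Further interferon-stimulated genes that were not called, chosen after their values were seen, included 2 with large differences. Oasl1, a relative of Oasl2 on chromosome 5 that restrains translation of Irf7 RNA, had adjusted counts of 38.9 and 24.7 in subjective day against 11.3 and 13.4 in objective day (log2 fold change -1.27, standard error 0.36, limma adjusted p = 0.0758). Ifitm1, the neighbour of Ifitm3 on chromosome 7, had values of 787 and 1000.9 against 316 and 724 (log2 fold change -0.89, standard error 0.33, limma adjusted p = 0.15). The objective day samples of Ifitm1 were far apart, with the replicate 1 lower, whereas Ifitm3 was higher in both.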
